A study of Mus musculus with 2 samples.

Results

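Complement genes were followed through the stroma of mouse epididymal white adipose tissue (eWAT). The 9 genes were C1qa, C1qb, C1qc, C3, C4b, C7, Serping1, C3ar1 and C5ar1, found by symbol among the 27998 genes listed in the files. Stromal vascular cells of C57BL/6 mice were captured by droplet-based single-cell RNA sequencing, in which a molecular tag (UMI) lets each captured transcript be counted once. The samples are 1 library from mice on low-fat diet (LFD) and 1 from mice on high-fat diet (HFD), each for 24 wk starting at 6 wk of age. The diets are those in each sample's own treatment label, whereas the protocol text shared by both samples names a low-fat diet for each, so every comparison of diets rests on the former. The study's methods name male C57BL/6J animals, and the number of mice behind a library is not given in the sources used here. Because each diet has 1 library, diet cannot be told apart from the animals or the preparation, no p-value is given, and every interval covers counting error only.

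Complement is a cascade of plasma and tissue proteins. The classical pathway begins when C1q, built from A, B and C chains, binds antibody or cell debris and turns on the proteases C1r and C1s, which cleave C4 and C2 into a convertase that splits C3. Fragments of C3 and C4 coat targets for uptake by phagocytes, C3a and C5a recruit myeloid cells through their receptors, and C5b to C9 assemble the membrane attack complex. Macrophages are a well known source of C1q, and fibroblasts and adipocytes also secrete complement proteins, among them adipsin, the factor D made by fat cells.

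The 3 C1q genes lie beside each other within 18675 bases on chromosome 4 (GRCm38, the build behind mm10), with C1qb (ENSMUSG00000036905) at 136880129 to 136886187, C1qc (ENSMUSG00000036896) at 136889804 to 136893065 and C1qa (ENSMUSG00000036887) at 136895917 to 136898803. C3 (ENSMUSG00000024164) is on chromosome 17 at 57203970 to 57228136, and C4b (ENSMUSG00000073418) is on the same chromosome at 34728380 to 34743882. C7 (ENSMUSG00000079105) is on chromosome 15 at 4988762 to 5063740, and Serping1 (ENSMUSG00000023224) is on chromosome 2 at 84765387 to 84775444. The receptor genes C3ar1 (ENSMUSG00000040552) and C5ar1 (ENSMUSG00000049130) are on chromosome 6 at 122847138 to 122856161 and on chromosome 7 at 16246743 to 16259540. All 9 are annotated as protein coding on the minus strand in GENCODE M21.

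Promoters are printed for a pair of genes with most UMIs in myeloid barcodes (C1qb and C1qc) and a pair with most UMIs in fibroblast barcodes (C3 and C7), so that the sequence beside each start site can be read with its pattern. Each runs from 250 bases before to 50 bases after the RefSeq start site (GRCm38.p6, minus strand, printed 5′ to 3′), at chr4:136886151-136886450, chr4:136892865-136893164, chr17:57228087-57228386 and chr15:5063724-5064023 in the order below. Capitals mark the letters GAGGAA, a core bound by the myeloid factor PU.1, and TTGCNNAA, a core bound by C/EBP factors, both searched on either strand, and no match overlapped another. GAGGAA was found in C1qb at -30 from the start site and, on the other strand, in C1qc at -193, and TTGCNNAA was found in C3 at -45. Neither was in the C7 window. Of all 32851 promoters of this length, 28.3% held GAGGAA and 10.8% TTGCNNAA, and a match is given as a description. Promoters were matched for 6 of the 9 genes, and the windows of C3ar1 and C5ar1 held neither core.
C1qb: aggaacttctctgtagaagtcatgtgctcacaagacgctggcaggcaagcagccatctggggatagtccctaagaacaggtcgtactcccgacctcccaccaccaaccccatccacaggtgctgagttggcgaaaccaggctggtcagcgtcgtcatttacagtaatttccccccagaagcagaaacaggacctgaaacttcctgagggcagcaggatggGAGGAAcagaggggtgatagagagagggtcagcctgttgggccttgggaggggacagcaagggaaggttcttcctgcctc
C1qc: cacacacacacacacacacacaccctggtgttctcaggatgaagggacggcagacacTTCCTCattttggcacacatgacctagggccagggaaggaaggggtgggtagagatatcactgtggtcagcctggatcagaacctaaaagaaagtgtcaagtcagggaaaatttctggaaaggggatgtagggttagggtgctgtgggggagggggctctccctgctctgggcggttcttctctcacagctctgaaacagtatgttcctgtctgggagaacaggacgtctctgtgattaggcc
C3: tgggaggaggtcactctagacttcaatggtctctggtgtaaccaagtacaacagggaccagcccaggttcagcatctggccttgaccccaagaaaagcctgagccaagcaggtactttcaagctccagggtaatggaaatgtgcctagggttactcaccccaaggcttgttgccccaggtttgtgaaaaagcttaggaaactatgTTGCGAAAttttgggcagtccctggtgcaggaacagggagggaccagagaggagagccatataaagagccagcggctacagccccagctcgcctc
C7: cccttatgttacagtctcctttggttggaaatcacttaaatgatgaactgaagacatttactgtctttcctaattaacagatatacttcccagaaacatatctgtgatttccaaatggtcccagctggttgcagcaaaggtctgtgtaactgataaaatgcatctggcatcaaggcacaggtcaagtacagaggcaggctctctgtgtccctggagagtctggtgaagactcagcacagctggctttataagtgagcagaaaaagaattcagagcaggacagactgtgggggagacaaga

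Barcodes with at least 200 detected genes, 1057 on LFD and 1117 on HFD, were sorted by UMIs of class genes, none of them a complement gene. Fibroblasts had at least 10 UMIs of Dcn and were split by at least 3 UMIs of Pi16, Dpp4 and Sema3c into Pi16-high (174 LFD and 87 HFD barcodes) and Pi16-low (214 and 224). Endothelial barcodes had at least 3 UMIs of Cdh5 and Cldn5 (159 and 226), mural barcodes at least 5 UMIs of Rgs5, Kcnj8, Abcc9 and Notch3 (64 and 116), and myeloid barcodes at least 1 UMI of Csf1r with less Dcn than fibroblasts (270 and 396). Lymphoid barcodes of no other class (100 and 44) serve as a background class. Median depth was 6523 UMIs on LFD and 6598 on HFD, and the libraries shared 0 barcodes. Levels are counts per 1000000 UMIs of a class (CPM), with the exact Poisson 95% interval in parentheses, and diets are compared by the HFD/LFD ratio of CPM with its exact conditional 95% interval.

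The markers of fibroblast, endothelial and myeloid barcodes were each detected in their own class on both diets, but the mural label did not hold apart. Of the mural barcodes, 58 of 64 on LFD and 108 of 116 on HFD also met the endothelial rule, and Pecam1, an endothelial adhesion molecule, stood at 677 and 688 CPM in them. A barcode may stand in several classes, as 63 LFD and 113 HFD barcodes did. The Pi16-high class also held 25 LFD and 12 HFD barcodes with at least 3 UMIs of the mesothelial genes Msln, Upk3b and Krt19, in which Pi16 itself stood at 29.7 CPM on LFD and had no UMI on HFD.

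**Figure D1:**
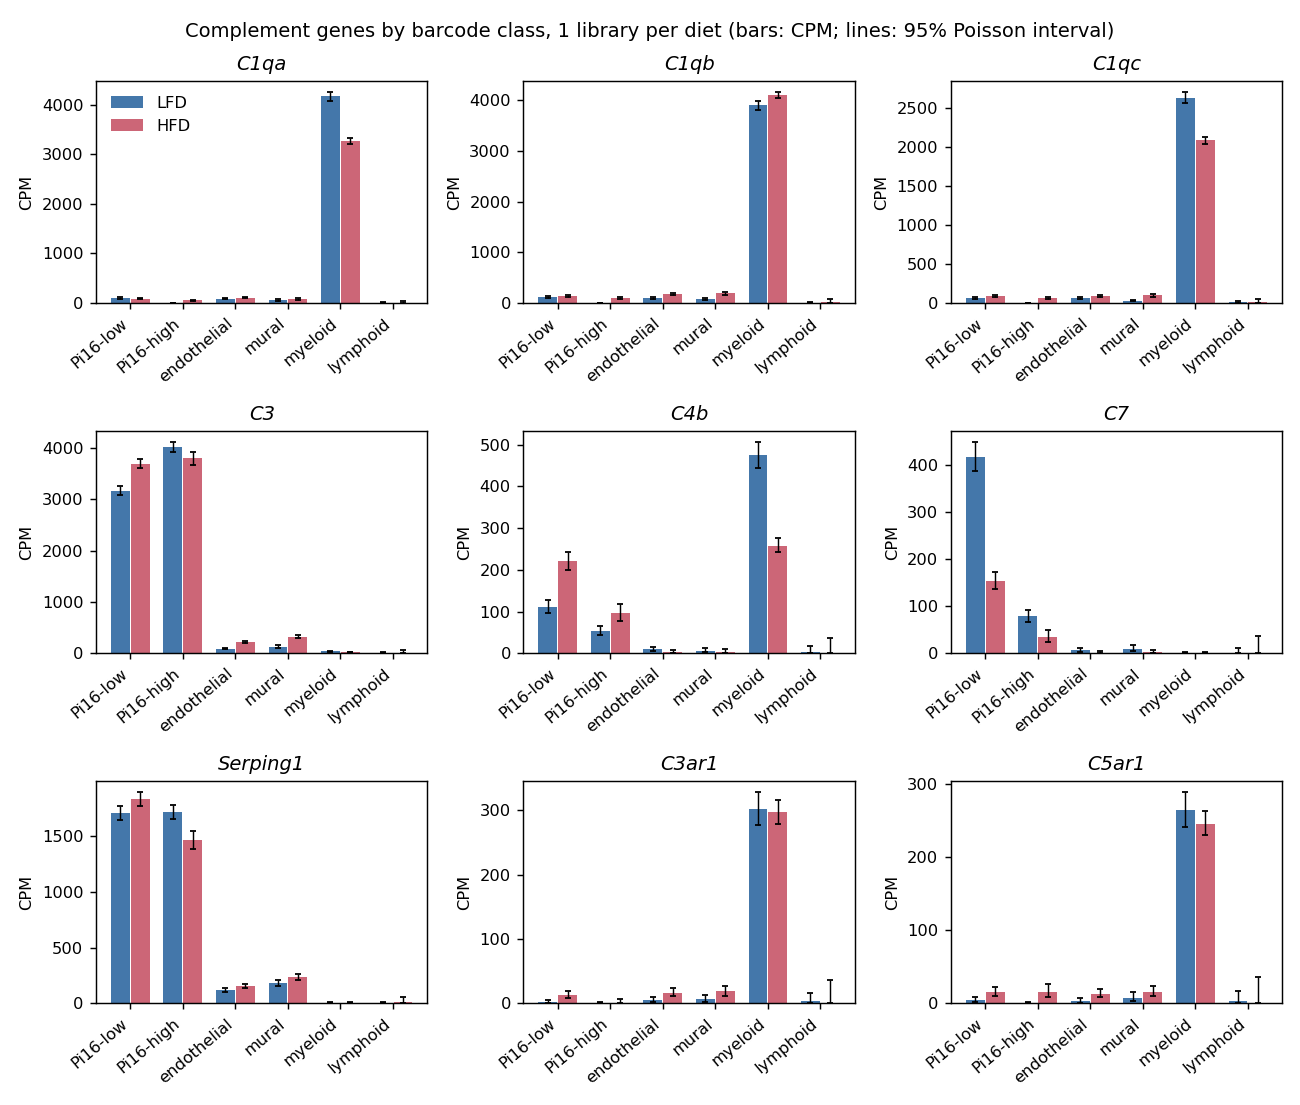
CPM of each complement gene (y axis) in 6 barcode classes (x axis) on LFD (blue) and HFD (red), with the exact Poisson 95% interval as lines. C1q chains and receptors stand in the myeloid class, C3, C7 and Serping1 in the fibroblast classes, and C4b in both.

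The genes formed a myeloid group and a fibroblast group, with C4b in both. Counting each barcode once, myeloid barcodes held 95.7% of C1qa, 94.9% of C1qb and 95.7% of C1qc UMIs on LFD, and 94.6, 93.4 and 93.6% on HFD. They also held 97.3% of C3ar1 and 97.0% of C5ar1 UMIs on LFD, and 92.6 and 91.8% on HFD. C3, C7 and Serping1 were split between the fibroblast classes instead. For C3, Pi16-low and Pi16-high barcodes held 42.2 and 55.2% on LFD and 62.8 and 32.0% on HFD. The Serping1 shares were 46.8 and 49.3%, then 66.9 and 26.1%, and the C7 shares 82.8 and 15.8%, then 88.1 and 9.45%. C4b stood apart, since myeloid barcodes held 73.7% of its UMIs on LFD and 62.6% on HFD while the Pi16-low share was 15.8 and 28.7%. These shares move with class size, and Pi16-high barcodes made up 16.5% of the LFD and 7.79% of the HFD library.

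**Figure D2:**
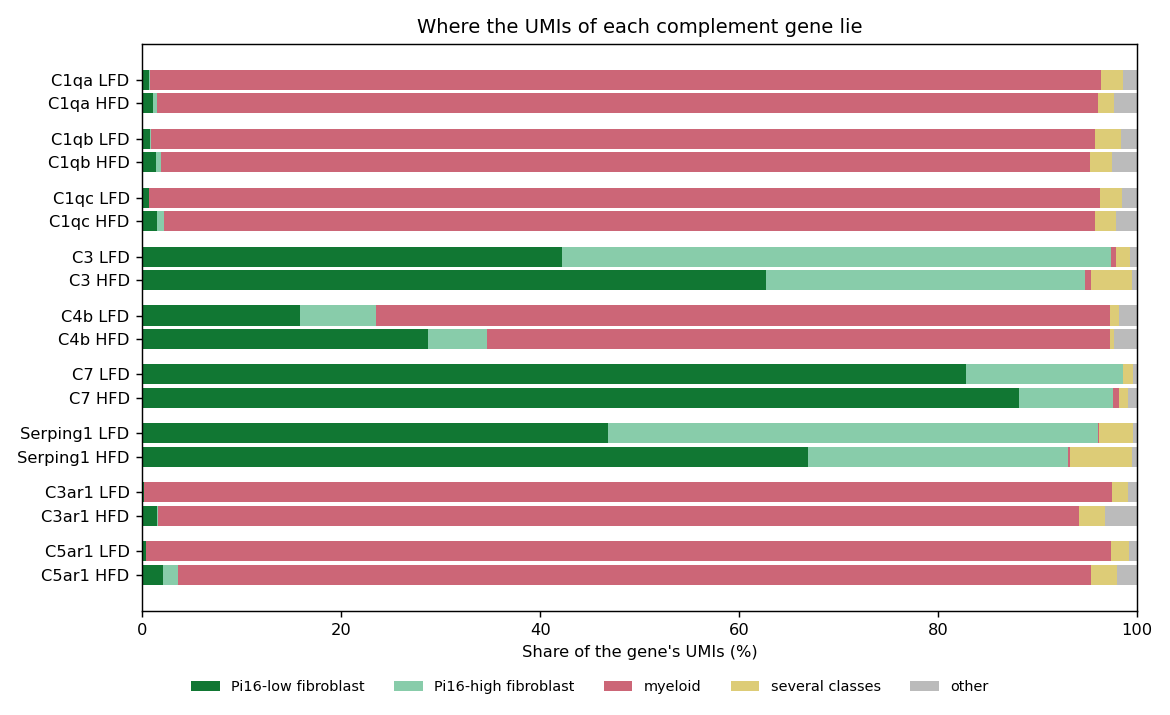
Share of the UMIs of each gene (x axis, %) by barcode class, 1 bar per gene and diet (y axis), with each barcode counted once. Red marks myeloid and greens mark fibroblast barcodes, yellow marks barcodes of several classes and grey pools the rest, and C4b is the gene with large shares of both red and green.

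C1q was high in myeloid barcodes on both diets, and its chains did not differ alike between them. C1qa, the A chain, stood at 4168 CPM (4075 to 4263) on LFD and 3274 CPM (3214 to 3334) on HFD, a ratio of 0.785 (0.763 to 0.809). C1qb, the B chain, stood at 3894 CPM (3804 to 3986) and 4098 CPM (4031 to 4165), a ratio of 1.05 (1.02 to 1.08), or a log2 ratio of 0.07 that turned to -0.15 (-0.25 to -0.06) under the filter on cells in the study's methods. C1qc, the C chain, was closer to C1qa, with 2637 CPM (2563 to 2713) and 2087 CPM (2039 to 2136), a ratio of 0.791 (0.763 to 0.821). A C1qa UMI was found in 90.4% (86.2 to 93.6%) of LFD and 81.6% (77.4 to 85.3%) of HFD myeloid barcodes, or in 87.5 and 74.3% after each barcode was thinned to 1000 UMIs. The lower quartile of C1qa over myeloid barcodes was 2804 CPM on LFD and 589 CPM on HFD, so HFD barcodes reached further down. All 3 chains were seen together in 87.4% of LFD and 79.0% of HFD myeloid barcodes, and none of them in 7.04 and 13.1%.

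The chain ratio differed between myeloid barcodes of different marker sets. The Lyve1 set was at least 3 UMIs of Timd4, Lyve1, Folr2 and Cd163, genes of resident macrophages, and the Trem2 set at least 3 UMIs of Trem2, Gpnmb and Spp1, genes of lipid-associated macrophages. The Lyve1 set alone marked 196 LFD barcodes (72.6% of the class) and 84 HFD barcodes (21.2%), the Trem2 set alone 0 and 72, both sets 19 and 93, and neither 55 and 147. Over the whole class there were 0.934 (0.904 to 0.965) C1qb UMIs per C1qa UMI on LFD and 1.25 (1.22 to 1.28) on HFD. In barcodes with the Lyve1 set alone the values were 0.922 (0.890 to 0.956) and 0.996 (0.95 to 1.04). Barcodes with both sets had 0.816 (0.743 to 0.896) on LFD and 1.13 (1.09 to 1.18) on HFD, and these intervals do not overlap. This group has 19 LFD and 93 HFD barcodes, and a barcode enters it only with 3 UMIs of each set, which depends on depth. Whether the diets put like barcodes into it was not tested. In HFD barcodes with the Trem2 set alone the value was 1.94 (1.83 to 2.07), and in barcodes with neither set it was 1.49 (1.30 to 1.71) on LFD and 1.54 (1.44 to 1.65) on HFD. Barcodes with neither set thus had more C1qb per C1qa than those with the Lyve1 set alone on both diets. This grouping was added after the values were seen. The planned one also used a Plac8 set (Plac8, Ly6c2 and Ace, at least 3 UMIs) and a Flt3 set (Flt3, Cd209a, Xcr1 and Ccr7, at least 2), and put barcodes of several sets apart as mixed. By it the value was 0.939 (0.896 to 0.983) on LFD and 1.05 (0.988 to 1.11) on HFD in barcodes of the Lyve1 set only, 0.874 (0.832 to 0.918) and 1.09 (1.05 to 1.13) in mixed barcodes, and 1.46 (1.27 to 1.68) and 1.54 (1.44 to 1.65) in barcodes of no set.

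Within marker sets the diet ratios of the chains differed from those of the whole class. In barcodes with the Lyve1 set alone, C1qa stood at 4993 CPM on LFD and 6366 CPM on HFD, a ratio of 1.27 (1.22 to 1.33), and the ratio was 1.38 (1.32 to 1.44) for C1qb and 1.15 (1.09 to 1.22) for C1qc. In barcodes with both sets the ratios were below 1, at 0.586 (0.547 to 0.627) for C1qa, 0.813 (0.755 to 0.876) for C1qb and 0.682 (0.623 to 0.747) for C1qc, and with neither set they were above 1, at 1.94 (1.73 to 2.19), 2.02 (1.83 to 2.22) and 2.29 (1.94 to 2.73). By the planned grouping the ratios of C1qa, C1qb and C1qc were 1.18 (1.11 to 1.24), 1.31 (1.24 to 1.39) and 1.16 (1.08 to 1.24) in barcodes of the Lyve1 set only, and 1.87 (1.67 to 2.11), 1.97 (1.79 to 2.18) and 2.22 (1.88 to 2.64) in those of no set. In mixed barcodes they were 0.855 (0.820 to 0.891), 1.06 (1.02 to 1.11) and 0.815 (0.774 to 0.858), so the side of 1 on which C1qb fell depended on the grouping. HFD barcodes with the Trem2 set alone had 1901 CPM of C1qa, 3690.2 of C1qb and 1468 of C1qc. Median depth was 6276 and 6155.5 UMIs in the Lyve1 set alone and 8473 UMIs in the Trem2 set alone, and the chance of reaching 3 UMIs depends on depth.

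**Figure D3:**
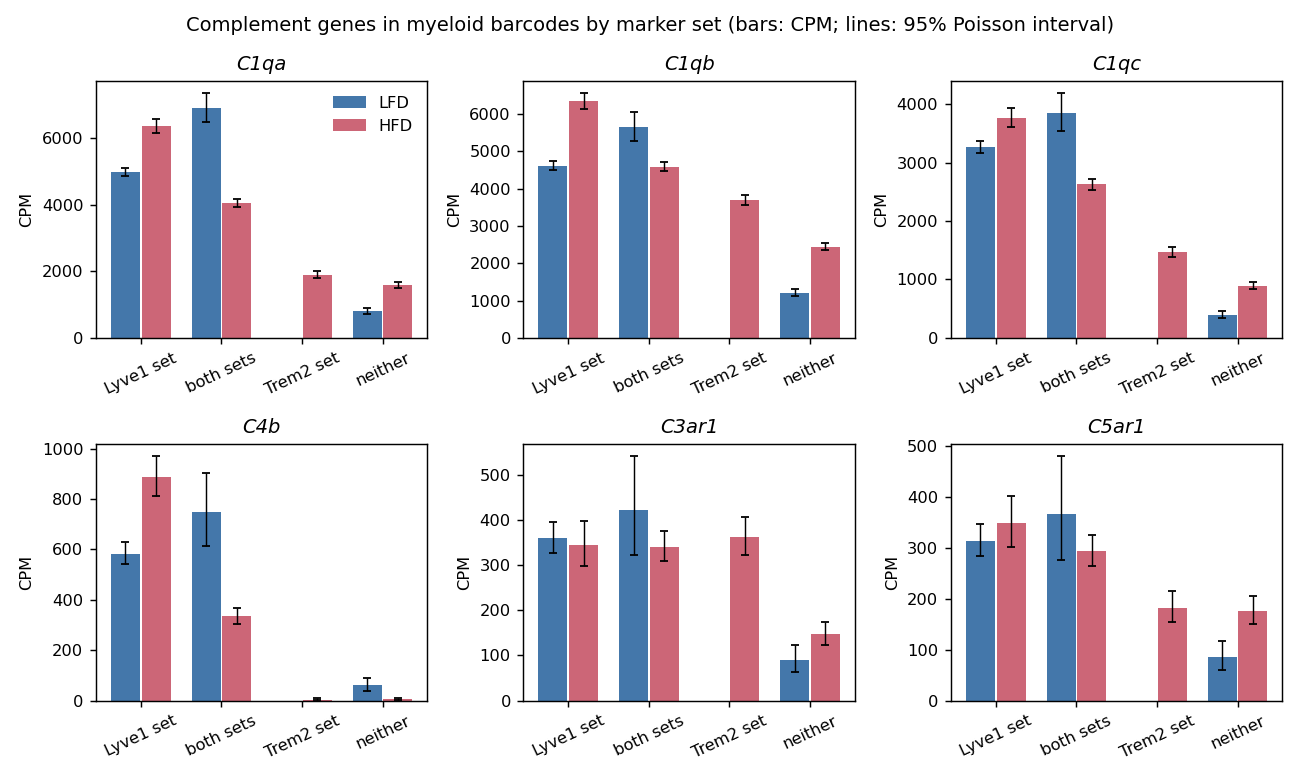
CPM (y axis) of 6 complement genes in myeloid barcodes grouped by marker set (x axis) on LFD (blue) and HFD (red), with exact Poisson 95% intervals as lines. No LFD barcode carried the Trem2 set alone, and C4b is near 0 in the 72 HFD barcodes that did.

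In Pi16-low fibroblasts on both diets and in Pi16-high fibroblasts on HFD, C1q UMIs came from few barcodes. In Pi16-low fibroblasts, 5 of 214 LFD barcodes held 97.3% and 6 of 224 HFD barcodes 96.7% of all C1q UMIs. Lyz2, the lysozyme of macrophages, was present in all of these, at 3257 and 5193 CPM, and stood at 9.39 and 16.6 CPM in the 197 and 199 barcodes without a C1q UMI. In Pi16-high fibroblasts C1qa was 2.36 CPM on LFD (4 UMIs) and 54.9 CPM on HFD (49 UMIs), C1qb 4.71 and 90.7 CPM, and C1qc 1.18 and 65.0 CPM. Of the HFD C1q UMIs, 96.3% were in 2 barcodes, both with Csf1r and Lyz2, so the ratios of 23.3 (8.54 to 88.9) for C1qa, 19.3 (9.32 to 46.1) for C1qb and 55.1 (14.6 to 466) for C1qc rest on them, and without barcodes that hold Csf1r the log2 ratio of each chain was -0.055. The 14 C1q UMIs of Pi16-high barcodes on LFD lay in 14 barcodes. Barcodes of no class, which held 2.26% of C1qa, 2.45% of C1qb and 2.09% of C1qc UMIs on HFD, were not examined in this way. Lymphoid barcodes, which should lack C1q, had a C1qa UMI in 4 of 100 on LFD and 0 of 44 on HFD, at median depths of 2753.5 and 1946.5 UMIs. The C1q chains were 3 of the 7 members with at least 50 UMIs in the Pi16-high class that were at least 2-fold higher on HFD, beside 1.5% of all genes counted there, and C7 was the 1 that was lower, beside 1.92%. Nothing is read from these counts, since the minimum is over both diets. C7 met it through LFD, with 133 and 31 UMIs, and each chain through its HFD barcodes, with 8 and 81 UMIs of C1qb and 2 and 58 of C1qc on LFD and HFD.

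C3 and C1q in the vascular classes also depended on barcodes of several classes. C3 stood at 88.1 CPM (73.8 to 104) on LFD and 219 CPM (198 to 241) on HFD in endothelial barcodes, a ratio of 2.48 (2.04 to 3.04), and at 131 and 318 CPM in mural barcodes, a ratio of 2.44 (1.99 to 3.0). In endothelial barcodes of no other class it was 18.2 CPM on LFD (10 UMIs) and 21.3 CPM on HFD (11 UMIs), and mural barcodes of no other class, 5 and 6, held 0 and 0 UMIs. C1qb in mural barcodes stood at 79.4 and 189.7 CPM, a ratio of 2.39 (1.84 to 3.13), and C1qc at 31.3 and 99.5 CPM, a ratio of 3.17 (2.12 to 4.89). Both turned without the deepest 5% of barcodes, to log2 ratios of -1.20 and -0.74, and after thinning, to -0.13 and -2.42, and C3 in mural barcodes was 0.29 and 0.36 under the same settings. The 5 LFD and 6 HFD mural barcodes of no other class held 0 UMIs of C1qb and 0 of C1qc on both diets, and endothelial ones 4 and 2 of C1qb and 0 of C1qc on both. C3 was the 1 of 5 members counted in endothelial barcodes that was at least 2-fold higher, beside 1.36% of genes, and 0 were lower, beside 0.837%. In mural barcodes 3 of 5 were higher, beside 1.73%, and 0 lower, beside 0.956%, but C1qc met the minimum there through HFD, with 30 and 129 UMIs. In endothelial barcodes the 5 fibroblast markers summed to 646 CPM on LFD and 1626 on HFD, and the 6 myeloid markers to 298 and 736 CPM. Both sums were also higher on HFD in their own classes. The fibroblast sum was 7964 and 16012 CPM in Pi16-low fibroblasts, and the myeloid sum 11640 and 15068 CPM in myeloid barcodes. Neither sum therefore tracks the amount of fibroblast or myeloid RNA alone.

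C3, the protein on which all complement pathways converge, was a fibroblast gene here, with diet ratios near 1 over all barcodes. Pi16-low barcodes had 3171 CPM (3086 to 3257) on LFD and 3692 CPM (3606 to 3780.1) on HFD, a ratio of 1.16 (1.12 to 1.21), and a C3 UMI was seen in 97.7 and 99.6% of them. Pi16-high barcodes had 4029.9 CPM (3935 to 4127) and 3799.8 CPM (3673 to 3929.8), a ratio of 0.943 (0.905 to 0.983), or a log2 ratio of -0.08. This direction turned under the filter on cells in the study's methods, which gave a log2 ratio of 0.72 (0.53 to 0.92). Within that class, C3 stood at 5819 CPM on LFD and 7059 CPM on HFD in barcodes with the mesothelial genes, and at 3587 and 3136 CPM in the rest. On LFD the level of the whole Pi16-high class was 1.27 times that of Pi16-low barcodes (1.23 to 1.32), and on HFD it was 1.03 times (0.987 to 1.07), an interval that takes in 1. Without the barcodes with mesothelial genes the order differed by diet. The Pi16-high level was then above the Pi16-low one on LFD (3587 against 3171 CPM) and below it on HFD (3136 against 3692 CPM).

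Myeloid barcodes had little C3, with 38.4 CPM on LFD (70 UMIs) and 19.6 CPM on HFD (68 UMIs). A single LFD barcode held 48 of the 70 UMIs, and the lower value on HFD turned under the study's filter, to a log2 ratio of 2.05. The Pi16-low level was 82.5 times the myeloid one on LFD (65.2 to 106) and 189 times on HFD (149 to 243). Lymphoid barcodes had 2 C3 UMIs on LFD and 1 on HFD.

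C4b, the C4 protein cut by C1s early in the classical pathway, was higher on HFD in fibroblasts and lower in the myeloid class. Pi16-low barcodes had 111 CPM (95.9 to 128) on LFD and 221 CPM (201 to 243) on HFD, a ratio of 1.99 (1.67 to 2.38), just short of 2-fold. Pi16-high barcodes had 53.0 CPM (42.6 to 65.2) and 96.3 CPM (77.0 to 119), a ratio of 1.82 (1.34 to 2.47), and the log2 ratio went from 0.86 to 0.22 (-0.31 to 0.74) where the Pi16 set had to reach 5 UMIs. Myeloid barcodes had 474 CPM (443 to 507) and 258 CPM (242 to 276), a ratio of 0.544 (0.495 to 0.598), or a log2 ratio of -0.88 that was -1.55 under the study's filter. On the log2 scale the Pi16-low and myeloid ratios differed by 1.87 (1.59 to 2.15). The myeloid level was 4.27 times the Pi16-low level on LFD (3.64 to 5.02) and 1.17 times on HFD (1.04 to 1.31).

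The shares of barcodes with a C4b UMI went the same ways. They were 30.4% (24.3 to 37.0%) of Pi16-low barcodes on LFD and 61.6% (54.9 to 68.0%) on HFD, or 10.0 and 17.1% after thinning. In myeloid barcodes they were 60.7% (54.6 to 66.6%) and 29.3% (24.9 to 34.0%), or 29.3 and 16.5% after thinning. Lymphoid barcodes had a C4b UMI in 1 of 100 and 0 of 44. The median Pi16-low barcode had no C4b UMI on LFD and 131 CPM on HFD, whereas the median myeloid barcode had 299 CPM on LFD and no UMI on HFD.

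The lower myeloid C4b on HFD was not seen in barcodes with the Lyve1 set alone, but was seen in those with both sets. In barcodes with that set alone C4b was 584 CPM (542 to 628) on LFD and 888 CPM (811 to 971) on HFD, a ratio of 1.52 (1.35 to 1.71). In barcodes with both sets it was 747 and 334 CPM, a ratio of 0.447 (0.361 to 0.558). By the planned grouping the ratio was 1.43 (1.22 to 1.68) in barcodes of the Lyve1 set only and 0.641 (0.568 to 0.724) in mixed ones. C4b was low in the barcodes without the Lyve1 set. The 72 HFD barcodes with the Trem2 set alone had 2.47 CPM (2 UMIs), and those with neither set had 61.0 and 4.45 CPM (26 and 4 UMIs).

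A copy of C4b, C4a, lies on chromosome 17 at 34809092 to 34823464 and is not listed in the gene table used for counting. Over the last 500 bases of the transcripts compared, the end that 3′ libraries read, 489 of 499 aligned bases were identical (98.0%). C4b values are uncertain to the extent that reads of C4a were counted with them.

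**Figure D4:**
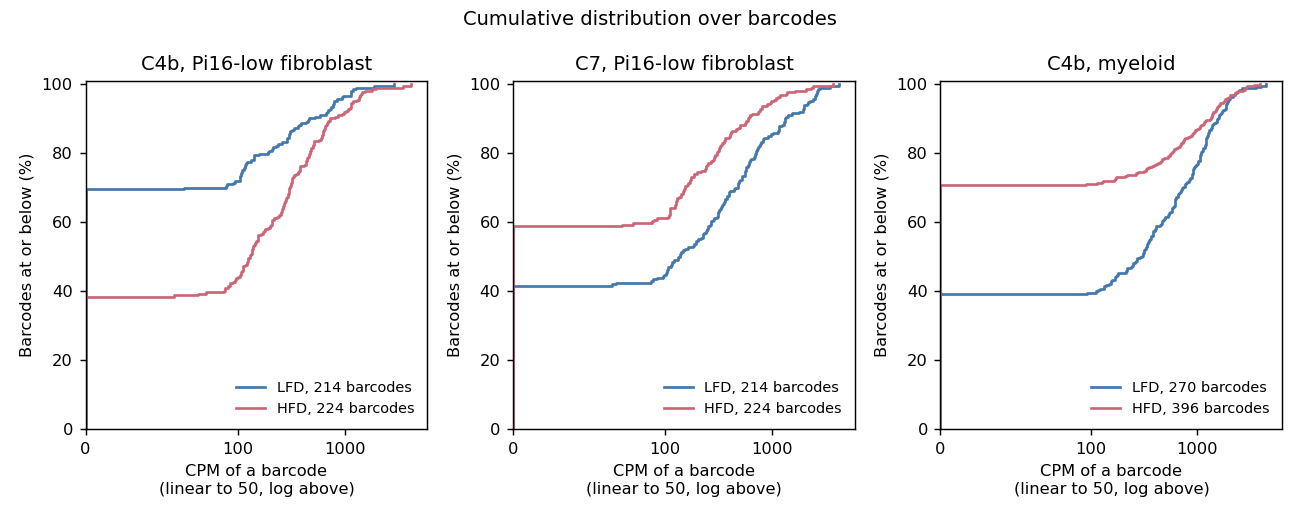
Cumulative share of barcodes (y axis, %) at or below a CPM value (x axis, linear to 50 and logarithmic above) for C4b and C7 in Pi16-low fibroblasts and C4b in myeloid barcodes, LFD in blue and HFD in red. The height at 0 is the share without a UMI, which is lower on HFD for C4b in fibroblasts and higher on HFD in the other panels.

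C7, which joins C5b and C6 in the membrane attack complex, was lower on HFD in fibroblasts and close to absent elsewhere. Pi16-low barcodes had 418 CPM (387 to 449.7) on LFD and 155 CPM (137 to 173) on HFD, a ratio of 0.370 (0.322 to 0.425). Pi16-high barcodes had 78.3 CPM (65.6 to 92.8) and 34.7 CPM (23.6 to 49.3), a ratio of 0.443 (0.290 to 0.659). The log2 ratio there was -1.17, and -3.36 (-5.03 to -2.06) under the study's filter. The share of Pi16-low barcodes with a C7 UMI was also lower on HFD, at 58.4% (51.5 to 65.1%) and 41.1% (34.6 to 47.8%), or 23.4 and 15.3% after thinning. In Pi16-high barcodes the shares were 17.8 and 18.4%, and the highest barcode held 31 UMIs on LFD and 4 on HFD. Myeloid barcodes had no C7 UMI on LFD, which allows up to 1.65 CPM, and 2 UMIs on HFD.

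C7 also varied within the fibroblasts. Its Pi16-low level was 5.33 times that of Pi16-high barcodes on LFD (4.42 to 6.47) and 4.45 times on HFD (3.07 to 6.67). Pi16-low barcodes with a C7 UMI had more C4b than those without, at 163 against 30.3 CPM on LFD and 297 against 174 CPM on HFD. They also had more C3 (3585 against 2526 CPM, and 4375 against 3269.7 CPM) and more Serping1 (1978 against 1275 CPM, and 2313 against 1535 CPM). Median depth with and without a C7 UMI was 8227 and 7547 UMIs on LFD and 7708 and 7743 UMIs on HFD.

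C7 was the 1 of 7 members with at least 50 UMIs in Pi16-low barcodes that was at least 2-fold lower on HFD, beside 2.03% of genes counted there, and 0 were at least 2-fold higher, beside 1.51%. Of those genes 0.634% had a lower ratio than C7, and 98.5% had a lower ratio than C4b. The median log2 ratio was 0.22 over the 7 members and -0.01 over all 7103 genes. The C1q chains are among these 7 members, and nearly all of their UMIs here came from few barcodes. Without barcodes with Csf1r their log2 ratios were -1.94 for C1qa, -0.86 for C1qb and -1.37 for C1qc. Collagen also differed in this class, with Col3a1 at 3595 CPM on LFD and 8307 CPM on HFD, and Pdgfra, a fibroblast marker, stood at 421 and 292 CPM.

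**Figure D5:**
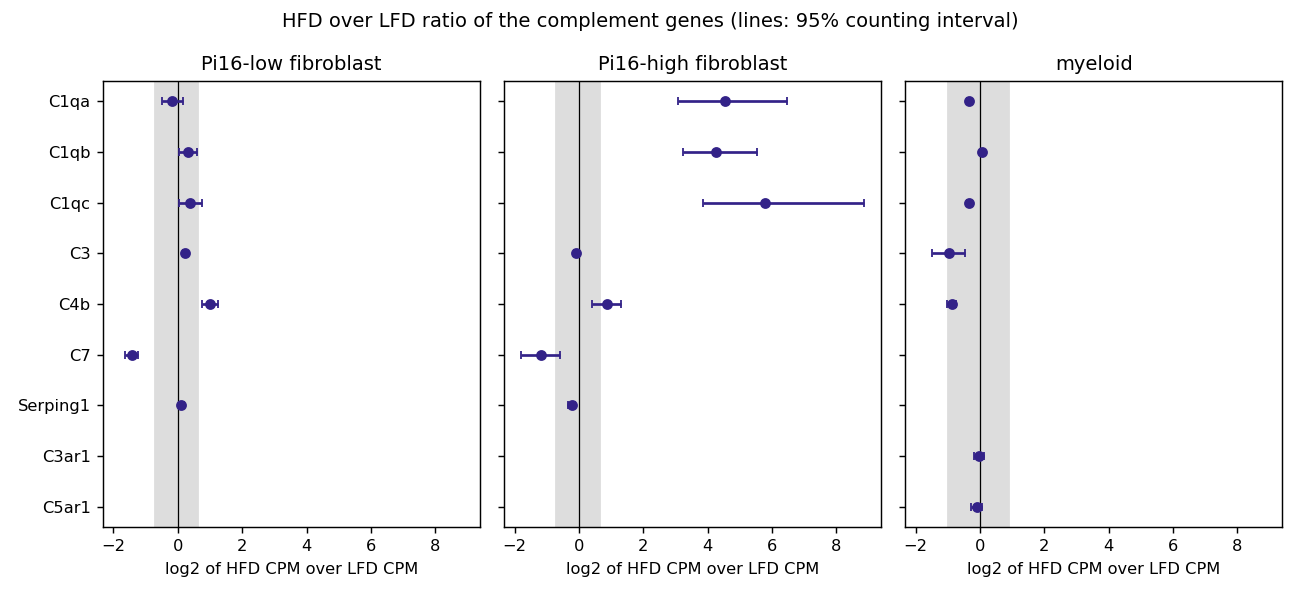
Log2 of the HFD over LFD CPM ratio (x axis) of members with at least 50 UMIs (y axis) in Pi16-low, Pi16-high and myeloid barcodes, with exact conditional 95% intervals as lines. The grey band spans the middle 90% of all genes counted in the class. In Pi16-low barcodes C4b lies above and C7 below the band, and in Pi16-high barcodes the C1q values rest on 2 HFD barcodes.

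Serping1 encodes C1 inhibitor, the serpin that stops C1r and C1s, and was a fibroblast gene on both diets. Pi16-low barcodes had 1703 CPM (1642 to 1767) on LFD and 1833 CPM (1772 to 1895) on HFD, a ratio of 1.08 (1.02 to 1.13) that turned below 1 under the filter on cells in the study's methods. Pi16-high barcodes had 1714 CPM (1652 to 1777) and 1463 CPM (1384 to 1544), a ratio of 0.853 (0.799 to 0.911). Within that class the values on LFD and HFD were 1893 and 2521 CPM in barcodes with the mesothelial genes, and 1670 and 1247 CPM in the rest. Serping1 levels were lower in the other classes. Myeloid barcodes had 8 and 21 UMIs, and lymphoid barcodes 1 UMI each. Endothelial barcodes had 118 and 158 CPM, but 5.45 and 13.6 CPM where they met no other rule, and the few barcodes that met the mural rule alone had 459 CPM (8 UMIs) and 429 CPM (4 UMIs).

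The anaphylatoxin receptors were myeloid genes, and over the whole class the interval of each diet ratio took in 1. C3ar1, the receptor for C3a, stood at 302 CPM (277 to 328) on LFD and 296 CPM (279 to 315) on HFD, a ratio of 0.982 (0.884 to 1.09). C5ar1, the main receptor for C5a, stood at 264 CPM (241 to 289) and 246 CPM (229 to 263), a ratio of 0.930 (0.830 to 1.04). After thinning to 1000 UMIs the log2 ratios were -0.58 (-0.97 to -0.18) for C3ar1, an interval below 0, and 0.32 (-0.14 to 0.80) for C5ar1. Without the deepest 5% of barcodes that of C3ar1 was -0.21 (-0.37 to -0.05). A C3ar1 UMI was found in 72.6 and 71.7% of myeloid barcodes and a C5ar1 UMI in 68.1 and 71.7%, against 1 of 100 and 0 of 44 lymphoid barcodes for each.

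Across marker sets the receptors differed from each other. In HFD barcodes with the Trem2 set alone C3ar1 was 362 CPM (322 to 406), and in those with the Lyve1 set alone 345 CPM (298 to 398), and these intervals overlap. For C5ar1 the values were 182 CPM (154 to 214) and 349 CPM (301 to 402), and these do not. Barcodes with neither set were lower in both receptors than those with the Lyve1 set alone, at 89.2 and 147 CPM for C3ar1 and 84.5 and 176 CPM for C5ar1 on LFD and HFD. Both were higher on HFD in those barcodes, at ratios of 1.64 (1.14 to 2.43) for C3ar1 and 2.08 (1.44 to 3.07) for C5ar1. With the Lyve1 set alone the ratio was 0.957 (0.803 to 1.14) for C3ar1 and 1.11 (0.931 to 1.33) for C5ar1. By the planned grouping C3ar1 was lower on HFD in barcodes of the Lyve1 set only, at 0.751 (0.588 to 0.951), where C5ar1 stood at 0.957 (0.762 to 1.20), and in barcodes of no set the ratios were 1.63 (1.12 to 2.41) and 1.99 (1.36 to 2.98).

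Of the 7 members with at least 50 UMIs in myeloid barcodes, 0 were at least 2-fold higher on HFD, beside 4.25% of genes counted there, and 0 at least 2-fold lower, beside 5.03%. Their median log2 ratio was -0.34, beside -0.02 over all 7738 genes. Of those genes 6.88% had a lower ratio than C4b and 27.2% a lower one than C1qa.

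The rest of the pathway was read from 6 lists with 49 genes in the files, the members included. No count over the lists is given for the myeloid and endothelial classes. Among list genes at least 2-fold lower on HFD in the myeloid class, Cfp, properdin, which stabilizes the C3 convertase, stood at 741 and 344 CPM, a ratio of 0.465 (0.429 to 0.503). Fcna, a ficolin of the lectin pathway, stood at 485 and 153 CPM, a ratio of 0.316 (0.283 to 0.352). Also lower were Colec12, a scavenger collectin, at a ratio of 0.393 (0.291 to 0.529), C5ar2, the second C5a receptor, at 0.394 (0.297 to 0.521), and Cfd, adipsin, at 0.102 (0.0596 to 0.165). Cfd met the minimum through LFD, where it was high. It was also lower on HFD in endothelial and mural barcodes, at ratios of 0.0472 and 0.0377, so this was not particular to the myeloid class. Itgax, the alpha chain of complement receptor 4, was higher on HFD, at 14.3 CPM on LFD and 90.0 CPM on HFD, a ratio of 6.30 (4.22 to 9.80), and met the minimum through HFD (26 and 313 UMIs). In barcodes with the Lyve1 set alone the ratio was 0.921 (0.814 to 1.04) for Cfp and 0.760 (0.658 to 0.876) for Fcna, both nearer to 1 than in the whole class. In barcodes with both sets the ratio was 0.422 (0.331 to 0.543) for Cfp and 0.320 (0.253 to 0.409) for Fcna, and with neither set 0.527 (0.453 to 0.613) for Cfp, so their lower values on HFD were also found within these groups. By the planned grouping the ratio of Cfp was 0.805 (0.686 to 0.941) in barcodes of the Lyve1 set only, an interval below 1, 0.485 (0.425 to 0.553) in mixed ones and 0.532 (0.454 to 0.624) in those of no set, and that of Fcna was 0.722 (0.589 to 0.880) and 0.368 (0.321 to 0.422) in the first and second of these.

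In Pi16-low fibroblasts 17 list genes had at least 50 UMIs, of which 0 were at least 2-fold higher, beside 1.51% of all genes, and 2 lower, beside 2.03%, C7 and Cfp (46 and 16 UMIs). Cfp met the minimum through LFD, where it was high, so nothing is read from the count of lower genes. The C1 proteases were highest in fibroblasts. In Pi16-high barcodes C1s1 stood at 735 CPM on LFD and 599 CPM on HFD, a ratio of 0.815 (0.735 to 0.903), and C1ra at 339 and 265 CPM, a ratio of 0.784 (0.671 to 0.913), both intervals below 1. C1s1 stood at 588 CPM on LFD and 629 CPM on HFD in Pi16-low barcodes, a ratio of 1.07 (0.983 to 1.17), and C1ra at 263 and 276 CPM, a ratio of 1.05 (0.923 to 1.19). In Pi16-high barcodes 3 of 15 were higher, the C1q chains described above, beside 1.5%, and 1 was lower, C7, beside 1.92%, and each of these met the minimum through the diet where it was high. Cd55, which speeds the decay of convertases and served as a marker of this class, stood at 719.8 and 804 CPM there. C2, cut by C1s, and Clu, clusterin, were high in the barcodes with mesothelial genes, at 953 and 1629 CPM on LFD against 21.3 and 2.94 CPM in other Pi16-high barcodes.

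In mural barcodes 14 list genes were counted, of which 4 were higher, C3, C1qb, C1qc and Cd55 (13 and 37 UMIs), beside 1.73% of all genes, and 1 lower, Cfd (470 and 24 UMIs), beside 0.956%. Of these, C1qc and Cd55 met the minimum only with their HFD UMIs and Cfd with its LFD UMIs, so nothing is read from the counts. Cfd stood at 509.5 and 24.0 CPM in endothelial barcodes, a ratio of 0.0472 (0.0339 to 0.0642). Adipoq, a transcript of mature adipocytes, was lower there too, at 98.5 and 28.0 CPM, and its part in the Cfd result was not tested. Cd93, once taken for a C1q receptor, was highest in endothelial barcodes, at 686 and 708 CPM.

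Genes with profiles most like the members were sought over 12 profiles, 6 classes on each diet, by Pearson's r of log2(CPM + 10) among 7945 genes, with the members and the genes of the class rules left out. The profiles share libraries and barcodes, so r is a description. The chains were close to each other, at 0.984 for C1qa with C1qb, 0.987 for C1qa with C1qc and 0.994 for C1qb with C1qc. Among the ranked genes, most like C1qa were Clec4a2 (0.978), Pf4 (0.976) and Mrc1 (0.973), and Clec4a2 also led for C1qb (0.978) and C1qc (0.989), ahead of Adgre1 and Cd300ld. C3 was closest to Dpt (0.995), Ccdc80 (0.993) and Smim1 (0.991), and Serping1 to Rbms3 (0.997), Fxyd1 (0.997) and Rgma (0.995). C7 was closest to Gdf10 (0.995), Fam150b (0.994) and 3632451O06Rik (0.990), and C4b to Slc41a2 (0.979), Abca9 (0.956) and Dse (0.951). C3ar1 was closest to Adgre1 (0.994), the gene for F4/80, and C5ar1 to Slc11a1 (0.989), with Adgre1 next (0.987).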

How the data were processed

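Deposited counts were used, whole-number UMI counts per gene and barcode, which the authors made with Cell Ranger (3.0.2 in the file header) against mm10 from 10x Chromium 3′ libraries, 1 per diet. The files held 1113 LFD and 1144 HFD barcodes with 7356278 and 8412325 UMIs. Barcodes with at least 200 genes were kept. The filter in the study's methods (at most 2500 genes and under 5% mitochondrial UMIs) would leave 294 and 352 and was run as an alternative. No doublet caller was run, and barcodes that met several class rules were kept and reported. Clustering and tests over cells were not repeated, since cells are not replicates.

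UMIs were summed per class and scaled to CPM. Intervals (95%) were exact Poisson for CPM, exact binomial (Clopper-Pearson) for shares and conditional binomial for ratios, and cover counting error only. A gene was counted with at least 50 UMIs over both libraries in a class and called at 2-fold. A count of 0 was bounded by 3 counts. By rule, list genes called in a class were named, and others with the class where they were highest (C1s1 and C1ra also in Pi16-low). Likeness used the 3 genes with the highest r. Python 3.11.15, numpy 2.4.6, pandas 2.3.3 and scipy 1.17.1 were used, and the ratio was tested on simulated data. The genes, classes and lists were chosen with earlier results of these data known. The grouping by the Lyve1 and Trem2 sets alone and the alternatives without Csf1r, mesothelial or highest barcodes were added after seeing the data. A result for 1 gene of the lists is not reported here.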

Additional observations from a re-analysis of the deposited data

Results flagged for a closer look

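C4b had diet ratios of opposite sign in the fibroblast and the myeloid class, with a log2 HFD/LFD ratio of 0.99 in Pi16-low fibroblasts and -0.88 in myeloid barcodes. With 1 library per diet the difference was not tested between samples. Its counting interval, 1.87 (1.59 to 2.15), does not cover the spread between animals.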

How the results depend on the processing

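No paired analysis was possible because each diet has 1 library, and for the same reason no library could be left out. Of 141 alternative log2 ratios of C3, C4b, C7 and Serping1 in Pi16-low and of C1qa, C1qb, C1qc, C4b, C3ar1 and C5ar1 in myeloid barcodes, 127 kept their direction, and 102 stayed within the counting interval of the reported value. A further 235 alternatives covered members in Pi16-high, endothelial and mural barcodes, C1qa, C1qb and C1qc in Pi16-low and C3 in myeloid barcodes. Of these, 205 kept their direction and 153 stayed within the interval, while 71 moved and 11 called values turned. In Pi16-high barcodes the study's filter gave 0.72 for C3, 1.41 for C4b, -3.36 for C7 and -0.60 for Serping1. For the 141, the values that moved were these, and the cause was not tested. For Pi16-low fibroblasts, means over barcodes gave 0.30 for C3, -1.15 for C7 and 0.21 for Serping1, thinning gave -1.17 for C7, leaving out the 5 highest barcodes gave 0.30 for C3 and 1.27 for C4b, and the study's filter gave -0.12 for Serping1. For myeloid barcodes, the study's filter gave -0.48 for C1qa, -0.15 for C1qb, -0.64 for C1qc and -1.55 for C4b. Without the deepest 5% of barcodes the values were -0.26 for C1qa, -0.64 for C4b and -0.21 for C3ar1, and means over barcodes gave -0.21 for C1qa, 0.15 for C1qb and -0.27 for C1qc. Thinning gave -0.13 for C1qa, 0.18 for C1qb, -1.11 for C4b, -0.58 for C3ar1 and 0.32 for C5ar1, and C1qb was 0.12 without the 5 highest barcodes. Within the Lyve1 set alone the values were 0.35 for C1qa, 0.46 for C1qb, 0.21 for C1qc, 0.61 for C4b and 0.15 for C5ar1. With both sets they were -0.77, -0.30, -0.55 and -1.16 for C1qa, C1qb, C1qc and C4b, -0.31 for C3ar1 and -0.32 for C5ar1, and with neither set 0.96, 1.01 and 1.20 for C1qa, C1qb and C1qc, 0.72 for C3ar1 and 1.06 for C5ar1. C1qa, C1qb and C1qc in Pi16-high fibroblasts each turned to -0.0031 without the deepest 5% and to -0.055 without barcodes with Csf1r, and C1qb to -0.57 without its 5 highest barcodes. In mural barcodes C1qb turned to -1.20 and C1qc to -0.74 without the deepest 5%, and to -0.13 and -2.42 after thinning. The number of genes 2-fold higher on HFD ranged over all alternatives from 31 to 436 in Pi16-low (107 as reported), 26 to 392 in Pi16-high (92), 23 to 357 in endothelial (99), 5 to 387 in mural (107) and 145 to 944 in myeloid barcodes (329), and of genes 2-fold lower from 22 to 574 (144), 12 to 499 (118), 18 to 327 (61), 2 to 287 (59) and 138 to 1137 (389), the highest each time with a 1.5-fold threshold.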
